A study of Mus musculus with 23 samples.

Results

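The NF-kB system was followed through 9 genes, chosen by symbol, in mouse hearts from a pair of models of the kind of heart failure in which the ejection fraction is preserved. They were the inhibitors Nfkbia and Tnfaip3, the IkB family gene Nfkbiz, subunits Nfkb1, Nfkb2, Rela and Relb, and adhesion molecules Icam1 and Vcam1. These are 9 of the 55487 genes in the deposited table. All 9 were measured and all passed the filter of a mean of 10 normalised read counts in both models.

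Poly(A) RNA of whole mouse hearts was sequenced in 23 libraries, in paired-end reads of 100 nt. The db/db+Aldo group (n = 8, 4 of them female) was made of obese, diabetic Leprdb/db mice of C57BL/6J background, which lack a working leptin receptor, with minipumps releasing d-aldosterone at 0.3 µg per hour for 4 weeks from 12 weeks of age. Its sham group (n = 7, 4 female) was made of wild-type mice of the same age with pumps releasing saline with ethanol, so the genotype and the hormone cannot be told apart, and every mouse of this model carried a pump. The HFD+L-NAME group (n = 4, 2 female) was made of wild-type mice fed a 60 kcal% fat diet for 15 weeks from 10 weeks of age, with drinking water that held 0.5 g/L of L-NAME, which blocks nitric oxide synthases. Its chow group (n = 4, 2 female) was made of wild-type mice on a standard diet for 15 weeks, also from 10 weeks of age. The diet and the inhibitor thus cannot be told apart either. Each model was sequenced in its own run beside its own controls, and no level was compared across runs.

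NF-kB is a family of dimeric transcription factors built from Rel proteins. In resting cells IkB proteins hold these dimers in the cytoplasm, and cytokines, Toll-like receptors and other signals trigger IkB kinase, which marks IkB for destruction and frees the dimers to enter the nucleus. Among the genes the dimers switch on are their own inhibitors, which close a negative feedback loop, and, in endothelium, the adhesion molecules by which leukocytes leave the blood. In the heart this system is known for its part in the inflammatory response of endothelium, fibroblasts and macrophages, and Nfkbia is also known in cultured cells as a gene that glucocorticoids switch on.

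Sequence before the gene start is shown for the 3 members whose level passed the test in one of the models. RefSeq windows on GRCm38.p6, from 250 bases before to 50 bases after each annotated start, were searched on both strands for GGGNNNTTCC, a core form of the kB site to which NF-kB dimers bind. Windows were given for 5 of the 9 members (Nfkbia, Nfkb2, Rela, Tnfaip3 and Icam1, with 8 windows in all), and the search found the letters in windows of 3 members (Nfkbia, Nfkb2 and Tnfaip3). They stand in 5.555% of all 32851 windows of this length. Capitals mark a match on either strand. The first sequence is the 120 bases before the start of Nfkbia at chr12:55492648-55492767, on the minus strand, where the match is read on the strand opposite to the gene. The second is a stretch of 28 bases before one start of Nfkb2 at chr19:46304709-46304736, on the plus strand. The window of that start held 2 matches, and the stretch shows only the one nearer the start. The match not printed begins 38 bases before the start, on the opposite strand, and the other windows of Nfkb2 held matches too. The third is the 120 bases before the start of Icam1 at chr9:21015820-21015939, on the plus strand, where the whole window held no match, which says only that these letters are not in it.
Nfkbia: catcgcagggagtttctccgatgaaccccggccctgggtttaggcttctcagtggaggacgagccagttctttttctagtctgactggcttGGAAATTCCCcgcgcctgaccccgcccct
Nfkb2: ccctcggggggccgaaaGGGGCTTTCCc
Icam1: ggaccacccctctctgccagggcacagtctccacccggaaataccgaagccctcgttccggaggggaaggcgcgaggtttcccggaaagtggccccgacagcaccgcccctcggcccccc
The match in Nfkbia begins 29 bases before the start, and the printed match in Nfkb2 begins 11 bases before it.

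Assigned reads per library ranged from 21258779 to 25692431. Mitochondrial genes took 46.6% ± 4.13 (SD, n = 8) of the reads in db/db+Aldo hearts and 38.9% ± 4.68 (SD, n = 7) in sham hearts, and 48.4% ± 3.35 in HFD+L-NAME hearts and 48.1% ± 1.40 in chow hearts (SD, n = 4 each). In 22 of 23 libraries the transcripts of the sex chromosomes matched the labelled sex. Sham replicate 1, labelled male, held both kinds, with 1358 normalised counts of Xist, a transcript of the inactive X of females (2430 to 3810 in the females of its run), and 563 of the Y-linked Ddx3y (748 to 1170 in the other males of its run). The db/db+Aldo replicate 5 stood farthest from its group, with a mean correlation over genes of 0.965 against 0.982 to 0.984 for the others, and sham replicate 7 had the lowest mitochondrial share, 30.0%. The changes of Nfkbia and Nfkb2 in this model, the ratios, marker counts and sex values are therefore also given without these 3 libraries. So are the differences between models for Nfkbia, Icam1 and Tnfaip3. Other changes of this model are mostly given with all libraries only, as are correlations between members within groups. Without the 3 libraries limma called 1 member higher and 1 lower in this model. Relb then came to -0.28 and Tnfaip3 to -0.22 on the log2 scale, neither of them called. Lepr, the gene mutated in db/db mice, averaged 45.2 ± 15.0 normalised counts in db/db+Aldo hearts and 64.2 ± 26.03 in sham hearts, and the count of the whole gene does not check the mutation. No label says more than that each library is 1 heart, so the p-values speak of the spread between hearts as sampled.

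Nfkbia, which encodes the classical inhibitor IkBα, rose about 1.9-fold in the db/db+Aldo hearts. Nfkb2, which encodes p100, the precursor of the subunit p52, fell to about 0.8 of its sham level, and the other 7 members did not pass the test when libraries were scaled by size factors. The called share of the members, 22.2%, lay near the 19.2% of all genes called in this model. In the HFD+L-NAME hearts the member that rose was Icam1, the endothelial ligand of leukocyte integrins, and the other 8 did not pass. That is 11.1% of the members, beside 2.18% of all genes. The changes of Nfkbia and of Icam1 each differed between the models when the difference itself was tested.

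**Figure D1:**
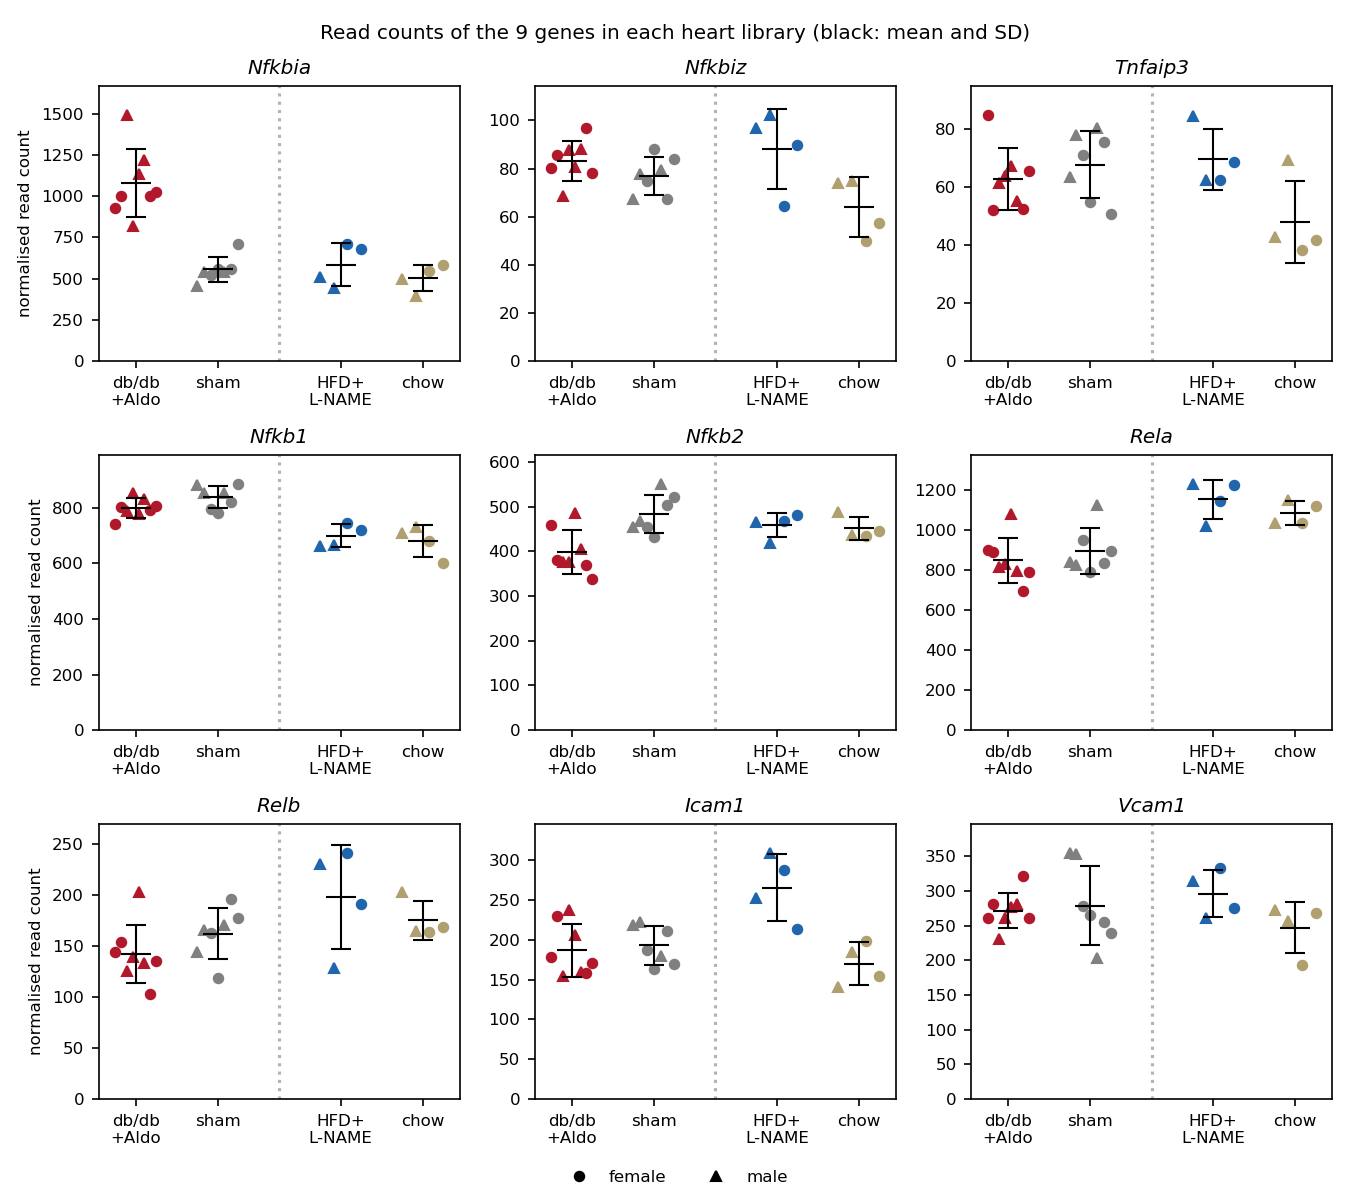
Normalised read count (vertical axis, linear from 0) of each of the 9 genes in each of 23 libraries, by group, with circles for females, triangles for males, and the mean and SD in black; a dotted line separates the sequencing runs, which are not compared. Nfkbia in db/db+Aldo hearts lies between 820 and 1489, above every sham heart, and Icam1 in HFD+L-NAME hearts lies between 214 and 308, above every chow heart.

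Among the inhibitors and Nfkbiz, Nfkbia (ENSMUSG00000021025, chr12:55489410-55492647, minus strand, GRCm38) had a lowest, median and highest level of 820, 1015 and 1489 normalised read counts in the db/db+Aldo hearts, against 458, 539 and 707 in the sham hearts. The groups did not overlap, since all 8 db/db+Aldo hearts lay above all 7 sham hearts. The difference was 0.94 ± 0.11 on the log2 scale (SE, 95% interval 0.72 to 1.17, limma adjusted p = 8.55e-06), a 1.92-fold change (1.64 to 2.25). Of all 14121 genes tested in this comparison, 19.2% were called at an adjusted p under 0.05 (9.96%, or 1407 genes, higher and 9.21%, or 1300 genes, lower), and groups did not overlap for 4.08%. In the authors' deposited table the log2 fold change of Nfkbia was 0.95 ± 0.11 (SE) with an adjusted p of 1.16e-14.

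The rise of Nfkbia was called under all 30 alternatives tried. Leaving out each library in turn gave log2 changes from 0.87 to 1.00, and leaving out the 3 libraries in doubt gave 0.95. Library names fall into 2 series, and the change was 0.86 (limma adjusted p = 0.00597) among names beginning with 26, which cover db/db+Aldo replicates 5 to 8 and sham replicates 5 to 7, and 0.99 (adjusted p = 0.00262) among the rest. Scaling by total counts, under which the median change of all genes was -0.22 and 555 genes rose and 4771 fell, left it at 0.74. Because whole hearts were sampled, a change in the number of cells of a type and a change in the RNA per cell cannot be told apart.

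Nfkbia was also set against Rela, the gene of the subunit p65 that IkBα holds back, inside each library, where scaling does not matter. The ratio of their normalised counts was 1.29 ± 0.298 (SD, n = 8) in db/db+Aldo hearts and 0.629 ± 0.109 (SD, n = 7) in sham hearts, and the lowest db/db+Aldo heart (0.988) lay above the highest sham heart (0.790). A 2-sided exact permutation test over 6435 regroupings gave p = 0.000311, or 0.00124 after adjustment over 4 such ratio tests. The ratio was chosen after the data were seen, which the adjustment does not cover. It draws on the same Nfkbia counts, so it is no independent result. Without the 3 libraries in doubt the ratio was 1.32 ± 0.305 in db/db+Aldo hearts (SD, n = 7) and 0.613 ± 0.0958 in sham hearts (SD, n = 5; exact permutation p = 0.00253, unadjusted). In the other model the ratio was 0.506 ± 0.0969 in HFD+L-NAME hearts and 0.467 ± 0.0853 in chow hearts (SD, n = 4 each), with an exact permutation p of 0.571, where 0.0286 is the smallest p that 70 regroupings allow.

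In the diet model Nfkbia had 512, 443, 708 and 677 normalised counts in the HFD+L-NAME hearts, against 499, 394, 543 and 580 in the chow hearts. The last 2 libraries of each group are females, and in both groups both females lie above both males. The treatment difference, 0.20 ± 0.09 (SE, 95% interval 0.01 to 0.40), did not pass (limma adjusted p = 0.312).

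Nfkbiz (ENSMUSG00000035356, chr16:55811375-55838899, minus strand) encodes IkBζ, a nuclear protein of the IkB family that acts on a subset of NF-kB targets. Its level had a lowest, median and highest of 68.8, 83.2 and 96.8 in db/db+Aldo hearts, against 67.4, 77.9 and 88.0 in sham hearts. The groups overlapped, and the log2 difference was 0.12 ± 0.10 (SE, adjusted p = 0.432). In the diet model it had 96.7, 102, 64.3 and 89.9 counts in HFD+L-NAME hearts, against 74.1, 75.0, 49.9 and 57.5 in chow hearts. Of the 4 treated hearts, 3 lay above all chow hearts, and the log2 difference of 0.45 ± 0.14 (SE, 95% interval 0.15 to 0.76) did not pass the adjustment over all genes (adjusted p = 0.132).

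Tnfaip3 (ENSMUSG00000019850, chr10:19000910-19015657, minus strand) encodes A20, an enzyme that edits ubiquitin chains and ends the signal upstream of IkB kinase. It had a lowest, median and highest of 52.1, 62.7 and 84.8 counts in db/db+Aldo hearts, against 50.7, 71.2 and 80.5 in sham hearts. These groups overlapped (log2 difference -0.11 ± 0.13, adjusted p = 0.593). In HFD+L-NAME hearts it had 84.7, 62.7, 62.3 and 68.6 counts, against 42.7, 69.3, 38.2 and 41.9 in chow hearts. Chow replicate 2 lay within the range of the treated hearts and the other 3 chow hearts lay below it. The log2 difference was 0.56 ± 0.18 (SE, 95% interval 0.16 to 0.95) and did not pass (adjusted p = 0.160). Of Nfkbia, Nfkbiz and Tnfaip3, Nfkbia alone was called in db/db+Aldo hearts, and limma called none of them in HFD+L-NAME hearts. With Icam1 they made up the 4 of 9 members that had an unadjusted p under 0.05 in the diet model, where 15.3% of all genes had one.

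**Figure D2:**
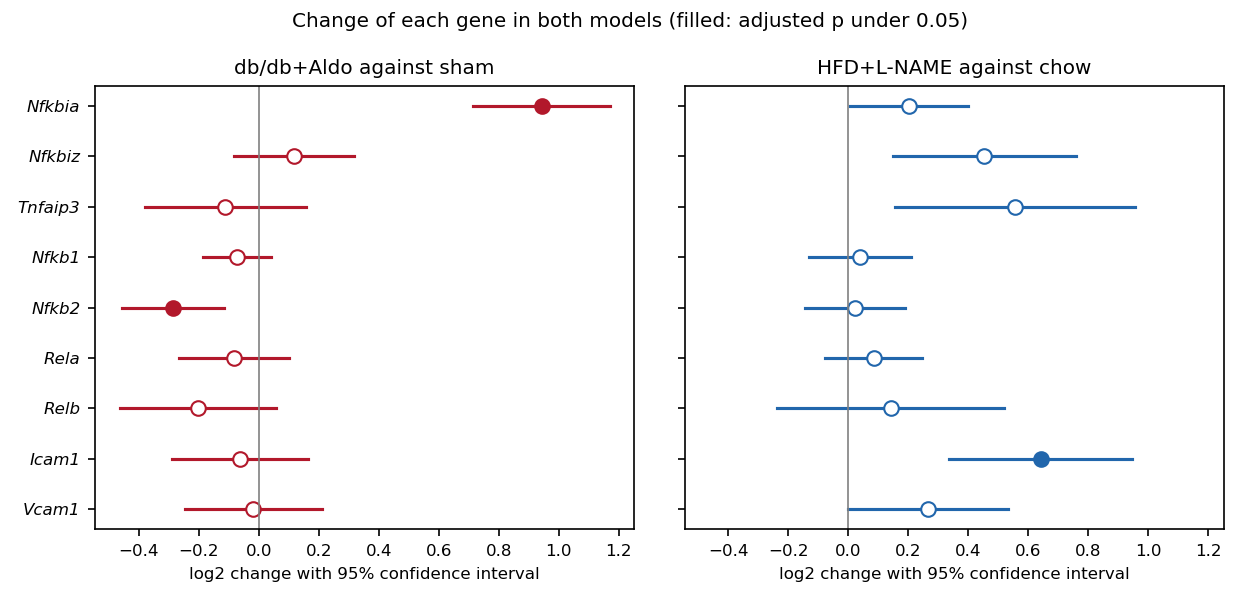
Log2 change with its 95% confidence interval (horizontal axis) of the 9 genes in db/db+Aldo against sham hearts and in HFD+L-NAME against chow hearts; filled points have an adjusted p under 0.05. Nfkbia (0.94) and Nfkb2 (-0.29) are filled in the first comparison and Icam1 (0.64) in the second.

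Of the subunits, Nfkb2 (ENSMUSG00000025225, chr19:46304320-46312385, plus strand) had a lowest, median and highest of 338, 378 and 486 normalised counts in db/db+Aldo hearts, against 431, 468 and 549 in sham hearts. The groups overlapped in part, with 6 of 8 db/db+Aldo hearts below all sham hearts and replicates 1 and 5 within the sham range. The log2 difference was -0.29 ± 0.08 (SE, 95% interval -0.46 to -0.12, limma adjusted p = 0.0188), a level of 0.820 times that of the sham hearts (0.729 to 0.923), and 9.21% of all genes tested were called lower. Of 30 alternatives, 4 ended the call. They were the replicate number as a block (-0.24, adjusted p = 0.0627), each series of library names alone (-0.44, adjusted p = 0.0650, for names beginning with 26 and -0.19, adjusted p = 0.208, for the rest) and leaving out sham replicate 5 (-0.26, adjusted p = 0.0521). Without the 3 libraries in doubt the change was -0.32 (adjusted p = 0.0105).

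The exons of Nfkb2 share 299 bases, 6.52% of their length, with Psd on the opposite strand and 531 bases, 11.6%, with a long noncoding RNA, AC114539.1. Psd had 65.3 ± 8.09 counts in db/db+Aldo hearts (SD, n = 8) and 112 ± 12.1 in sham hearts (SD, n = 7), and fell by 0.76 on the log2 scale (adjusted p = 3.64e-05). The noncoding RNA had 29.0 ± 5.91 counts in db/db+Aldo hearts (SD, n = 8) and 20.4 ± 3.16 in sham hearts (SD, n = 7), and rose by 0.48 ± 0.16 (adjusted p = 0.0392), so the overlapping genes moved in opposite directions. Whether the counting used strand is not given in the sources used here, and the part of either gene in the Nfkb2 result was not tested. Both are named for this overlap, after their values were seen. In the diet model Nfkb2 had 466.0, 418, 468 and 480 counts in HFD+L-NAME hearts, against 488, 436, 435 and 445 in chow hearts, ranges that overlapped (log2 difference 0.02 ± 0.08, 95% interval -0.14 to 0.19, adjusted p = 0.926).

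The other 3 subunits did not pass in the fit scaled by size factors in either model. With total-count scaling, under which the median of all genes was -0.22, all 3 were called lower in db/db+Aldo hearts, at -0.28 for Nfkb1 (adjusted p = 0.0144), -0.29 for Rela (adjusted p = 0.0449) and -0.41 for Relb (adjusted p = 0.0318). Scaling by the total counts of nuclear genes alone gave a median of -0.03 over all genes. Under it 1 of the 9 members was called lower, as in the reported fit. Rela (ENSMUSG00000024927, chr19:5637483-5648130, plus strand), the gene of p65, which carries the transactivation domain of the classical dimer, had a median of 821 in db/db+Aldo hearts (692 to 1077) and 837 in sham hearts (790 to 1125). Its log2 difference was -0.08 ± 0.09 (adjusted p = 0.556), and in HFD+L-NAME against chow hearts it was 0.08 ± 0.07 (adjusted p = 0.664). Nfkb1 (ENSMUSG00000028163, chr3:135584655-135691547, minus strand), the gene of p105, from which p50 is made, had a median of 799 in db/db+Aldo hearts (741 to 855) and 853 in sham hearts (783 to 885). Its coefficient of variation, 4.35% in db/db+Aldo and 4.82% in sham hearts, was the smallest of the 9 genes in both groups. The log2 difference of Nfkb1 was -0.07 ± 0.05 (95% interval -0.19 to 0.04, adjusted p = 0.376) in this model and 0.04 ± 0.08 (adjusted p = 0.869) in the diet model.

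Relb (ENSMUSG00000002983, chr7:19606217-19629438, minus strand), the gene of the subunit that pairs with p52 in the noncanonical arm, varied most of the subunits between libraries of a group. It had a lowest, median and highest of 102, 137 and 202 counts in db/db+Aldo hearts, against 118, 165 and 196 in sham hearts, with a log2 difference of -0.20 ± 0.12 (adjusted p = 0.275). In the diet model it had 230, 128, 240 and 191 counts in HFD+L-NAME hearts, against 203, 164, 163 and 169 in chow hearts. The treated hearts spanned the whole chow range, and the log2 difference was 0.14 ± 0.17 (adjusted p = 0.778).

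Of the adhesion targets, Icam1 (ENSMUSG00000037405, chr9:21015985-21028817, plus strand) encodes the ligand of the leukocyte integrins LFA-1 and Mac-1. It had 252, 308, 288 and 214 normalised counts in HFD+L-NAME hearts, against 140, 185, 199 and 155 in chow hearts. All 4 treated hearts lay above all 4 chow hearts, and the groups were apart in the same way for 8.2% of all genes tested, in either direction. The difference was 0.64 ± 0.14 on the log2 scale (SE, 95% interval 0.34 to 0.95, limma adjusted p = 0.0366), a 1.56-fold change (1.26 to 1.93). In this comparison 2.18% of 13801 genes were called (1.18%, or 163 genes, higher and 1%, or 138 genes, lower). In the authors' deposited table the log2 fold change of Icam1 was 0.64 ± 0.15 (SE) with an adjusted p of 0.00236.

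The size of the Icam1 change kept between 0.53 and 0.76 when any 1 library of the diet model was left out, and its call did not hold in 6 of those 8 fits. The adjusted p was 0.115, 0.0575 and 0.107 without chow replicate 1, 2 or 4, and 0.0693, 0.0705 and 0.102 without HFD+L-NAME replicate 1, 2 or 3. In the db/db+Aldo hearts Icam1 had a lowest, median and highest of 155, 174 and 237 counts, against 163, 186 and 222 in sham hearts. Those ranges overlapped (log2 difference -0.06 ± 0.11, 95% interval -0.29 to 0.16, adjusted p = 0.735). An antisense gene, Gm47079, shares 511 bases of the Icam1 exons and had between 0 and 1.07 normalised counts in the db/db+Aldo model and 0 in all libraries of the diet model.

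Vcam1 (ENSMUSG00000027962, chr3:116109949-116129688, minus strand) encodes the ligand of the integrin VLA-4. It had 315, 261, 333 and 275 counts in HFD+L-NAME hearts, against 272, 256, 193 and 268 in chow hearts. Of the treated hearts, 3 lay above all chow hearts, and the log2 difference of 0.27 ± 0.12 (95% interval -0.00 to 0.53) did not pass (adjusted p = 0.335). In db/db+Aldo hearts its lowest, median and highest levels were 231, 269 and 321, against 203, 266 and 354 in sham hearts. The log2 difference there was -0.02 ± 0.11 (95% interval -0.25 to 0.21, adjusted p = 0.929). It had opposite signs in the 2 series of library names, with 0.32 ± 0.13 among names beginning with 26 (adjusted p = 0.188) and -0.27 ± 0.11 among the rest (adjusted p = 0.167), neither of which passed.

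The ratio of Icam1 to Vcam1 counts within a library was 0.905 ± 0.188 in HFD+L-NAME hearts and 0.711 ± 0.230 in chow hearts (SD, n = 4 each; 2-sided exact permutation p = 0.200, adjusted 0.400). In db/db+Aldo hearts it was 0.691 ± 0.132 (SD, n = 8), and in sham hearts 0.706 ± 0.108 (SD, n = 7), with an exact permutation p of 0.767, and p = 0.598 without the 3 libraries in doubt (0.684 ± 0.141 in 7 db/db+Aldo hearts and 0.724 ± 0.123 in 5 sham hearts). A rise of Icam1 beyond that of Vcam1 in the diet model was thus not shown by this test.

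Cell type markers were read beside these results. In the diet model 20% of tested endothelial and 20% of tested macrophage markers were called, beside 2.18% of all genes. In the db/db+Aldo model 20% of endothelial, 40% of macrophage, 62.5% of fibroblast and 40% of smooth muscle markers were called, beside 19.2%. Over all marker lists with a tested gene the shares ran from 0% to 50% and from 0% to 100%, respectively. Of 10 endothelial markers, 2 rose and 0 fell in the diet model, and their summed level was 18188 to 22084 in HFD+L-NAME hearts and 16173 to 19325 in chow hearts. Of 10 macrophage markers, 2 rose and 0 fell there, with a summed level of 6322 to 9584 in HFD+L-NAME hearts and 6065 to 8356 in chow hearts. Of 6 adipocyte markers 2 were tested in the diet model and 1 rose, and the summed level was 4856 to 6456 in HFD+L-NAME hearts and 3721 to 4507 in chow hearts, with no overlap. Groups did not overlap for 8.2% of all single genes there. The median log2 change of the 2 tested was -0.07, so the higher sum does not describe the list as a whole. Of 5 red blood cell markers 0 were called there by limma and 4 had an unadjusted p under 0.05, beside 15.3% of all genes. The sums of these markers were 12940 to 31153 in HFD+L-NAME hearts and 7004 to 18532 in chow hearts. In the other model 1 endothelial marker rose and 1 fell (18773 to 22930 in db/db+Aldo hearts and 19572 to 24252 in sham hearts). There, 4 of 10 macrophage markers rose (5853 to 8202 in db/db+Aldo and 4651 to 6945 in sham hearts) and 5 of 8 fibroblast markers rose (16777 to 22138 in db/db+Aldo and 13863 to 16865 in sham hearts). Of 6 smooth muscle markers 5 were tested and 2 fell, and the summed level was 5774 to 8131 in db/db+Aldo hearts and 9305 to 11644 in sham hearts, with no overlap. Groups did not overlap for 4.08% of all single genes in this model. Of the adipocyte markers 3 were tested in this model, 1 rose and 2 fell (summed level 4378 to 7190 in db/db+Aldo and 3378 to 4468 in sham hearts, median log2 change -1.74). Without the 3 libraries in doubt 2 endothelial markers rose and 2 fell, 6 macrophage and 6 fibroblast markers rose, and 2 smooth muscle markers fell. None of the endothelial, macrophage, fibroblast and smooth muscle markers was at 0, whereas of 8 neutrophil markers 1 was high enough to test in this model and Ly6g was at 0 in every library. The part of these cell types in the changes of Nfkbia, Nfkb2 and Icam1 was not tested.

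The effects of both models were compared in 1 fit over all 23 libraries, as the change in db/db+Aldo against sham minus the change in HFD+L-NAME against chow, so that each effect stayed within its run. The difference was 0.75 ± 0.19 for Nfkbia (SE, limma adjusted p = 0.0193), whose rise was the larger in the db/db+Aldo model, and -0.70 ± 0.19 for Icam1 (adjusted p = 0.0239), which rose in the diet model and had a log2 difference of -0.06 in db/db+Aldo hearts. These are 2 of 9 members, beside 5.52% of all 14010 genes tested. Tnfaip3 came to -0.67 ± 0.22 (adjusted p = 0.0742), Nfkb2 to -0.31 ± 0.12 (adjusted p = 0.153), and the other 5 members lay between -0.35 and -0.11 with adjusted p from 0.295 to 0.549. Without the 3 libraries in doubt the values were 0.75 for Nfkbia (adjusted p = 0.0187), -0.72 for Icam1 (adjusted p = 0.0260) and -0.77 for Tnfaip3 (adjusted p = 0.0394), which was then called.

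Both differences were lost under some alternatives. Nfkbia was not called when libraries were scaled by total counts (0.54, adjusted p = 0.0788; 189 genes higher and 1241 lower, against 440 and 333 in the fit above), nor without HFD+L-NAME replicate 2 (0.64, adjusted p = 0.0630) or chow replicate 4 (0.70, adjusted p = 0.0558). The Icam1 difference was not called without chow replicate 1 (-0.60, adjusted p = 0.0717) or 4 (-0.67, adjusted p = 0.0605), nor without HFD+L-NAME replicate 2 (-0.63, adjusted p = 0.0687) or 3 (-0.64, adjusted p = 0.0584). The models differ in genotype, hormone, diet, inhibitor, age at tissue collection and sequencing run, which cannot be told apart.

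**Figure D3:**
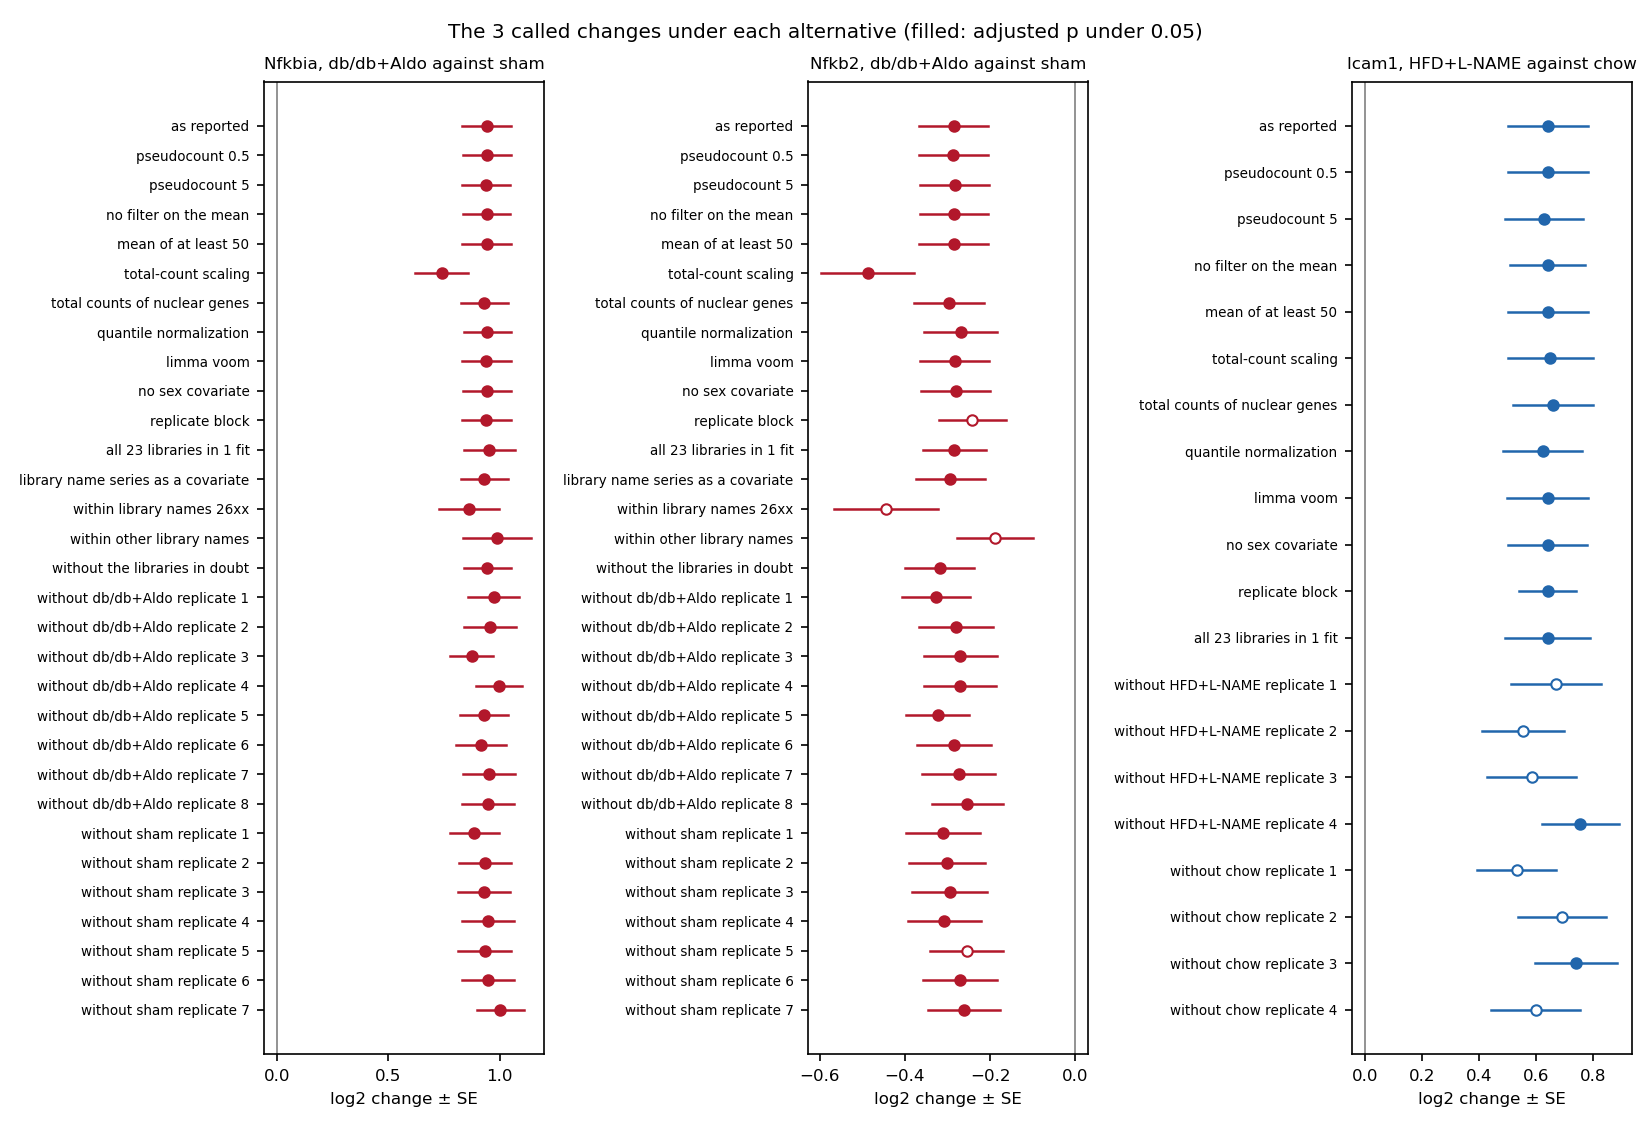
Log2 change with its SE (horizontal axis) of Nfkbia and Nfkb2 in db/db+Aldo against sham hearts and of Icam1 in HFD+L-NAME against chow hearts under each setting tried, including each library left out; filled points have an adjusted p under 0.05. All 30 alternatives are filled for Nfkbia, 26 of 30 for Nfkb2 and 13 of 19 for Icam1.

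Per kilobase of exon, Nfkbia was the most abundant of the 9 transcripts in db/db+Aldo hearts, at 669 normalised counts per kilobase. It was followed by Rela (276), Nfkb2 (87.0), Nfkb1 (66.3), Icam1 (42.8), Relb (36.5), Vcam1 (30.6), Nfkbiz (16.6) and Tnfaip3 (8.70). Of neighbours in this order the ranges over libraries overlapped for Icam1 and Relb and for Relb and Vcam1. In sham hearts the order was the same, but Nfkbia at 345 per kilobase and Rela at 291 overlapped. Rela led in the diet model, with 375 per kilobase against 363 for Nfkbia in HFD+L-NAME hearts and with 353 against 313 in chow hearts, and the ranges of this pair overlapped in both groups. Icam1 stood just above Nfkb1 in HFD+L-NAME hearts, at 60.9 against 58.0 per kilobase, and below Nfkb1 and Relb in chow hearts, at 38.9 against 56.5 and 45.0, and its range overlapped with a neighbour's in both groups. Nfkbiz and Tnfaip3 were the lowest pair in all 4 groups.

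The study's title speaks of sex, so females and males were compared within groups by the labelled sex, under which sham replicate 1 counts as a male although it held both kinds of transcript. None of the 9 members passed in any group by limma, where 0.0567% of genes were called in db/db+Aldo hearts, 0.0637% in sham, 0.254% in HFD+L-NAME and 0.109% in chow hearts. An unadjusted p under 0.05 was found for 0 members in db/db+Aldo and in sham hearts, for 1 in HFD+L-NAME hearts and for 2 in chow hearts, where 2.63%, 3.7%, 11.4% and 7.59% of all genes had one in these groups. Nfkbia had the largest female minus male value of the members, at 0.54 ± 0.13 on the log2 scale in HFD+L-NAME hearts (2 females with 708 and 677 counts, 2 males with 512 and 443, limma adjusted p = 0.126). It was 0.34 ± 0.13 in chow hearts (adjusted p = 0.546), -0.21 ± 0.14 in db/db+Aldo hearts and 0.20 ± 0.15 in sham hearts (adjusted p = 1.00 in both). The sex by treatment interaction was called for none of the members in either model, and 0 members in the db/db+Aldo model and 1 in the diet model (Nfkb1) had an unadjusted p under 0.05. Over all genes it was called for 0% in the db/db+Aldo model by limma and by limma voom, with an unadjusted p under 0.05 for 2.7%, and for 0.00725% in the diet model, with an unadjusted p under 0.05 for 6.64%. With 2 females and 2 males a group in the diet model, the interval of the Nfkbia interaction there ran from -0.19 to 0.59. Without sham replicate 1 the female minus male value of Nfkbia in sham hearts was 0.12 ± 0.17 and its interaction -0.32 ± 0.22, against -0.40 ± 0.20 with all libraries, and limma called none of the members in either (0 with an unadjusted p under 0.05). Without all 3 libraries in doubt these values were 0.03 ± 0.17 and -0.23 ± 0.22, and again 0 members were called or had an unadjusted p under 0.05. Over all genes, leaving out sham replicate 1 left 7 genes called by sex in sham hearts and 0 for the interaction by limma, with 263 genes at an unadjusted p under 0.05.

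Within groups Nfkbia was set against each of the other 8 members over the libraries of db/db+Aldo hearts (n = 8) and of sham hearts (n = 7), which is 16 relations. None passed in an exact permutation test, and the lowest adjusted p was 0.666 for Pearson's r and 0.801 for Spearman's rho. The genes whose level was most like that of Nfkbia over the 15 libraries of this model, by Pearson's r among 10716 genes, were Cdc42ep4 (r = 0.959), Dctn6 (0.951), Dclre1b (0.937), Depp1 (0.937) and Acat1 (0.936). These libraries share a run and differ by treatment, and r of the deviations from the group means was lower, from 0.661 for Depp1 to 0.797 for Cdc42ep4. Over the 12 libraries left without those in doubt, r ran from 0.939 for Acat1 to 0.970 for Dclre1b. Cdc42ep4, an effector of the small GTPase Cdc42, averaged 515 ± 64.8 counts in db/db+Aldo hearts and 306 ± 55.0 in sham hearts.

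The wider pathway was read in 8 lists of 114 further genes, of which 96 were tested in db/db+Aldo against sham hearts. There 12 rose and 9 fell (6 and 23 when scaled by total counts), which is 21.9% called, beside 19.2% of all genes, with a median log2 change of 0.04, where the 9 members had a median of -0.07 and all genes one of -0.02. Without the 3 libraries in doubt 95 were tested, of which 13 rose and 9 fell. In HFD+L-NAME against chow hearts 99 were tested, 1 rose and 2 fell, which is 3.03% called beside 2.18% of all genes, and the median was 0.09, where the members had 0.20 and all genes -0.00. In the test of the difference between the models, 4 of the 96 were called higher and 3 lower, which is 7.29% beside 5.52% of all genes. In all 3 comparisons these pooled shares lay near those of all genes, but single lists differed. Their shares ran from 7.69% to 40% in db/db+Aldo hearts, from 0% to 10% in HFD+L-NAME hearts and from 0% to 33.3% for the difference. The list of other NF-kB targets stood at 40%, 9.09% and 25% in these comparisons.

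**Figure D4:**
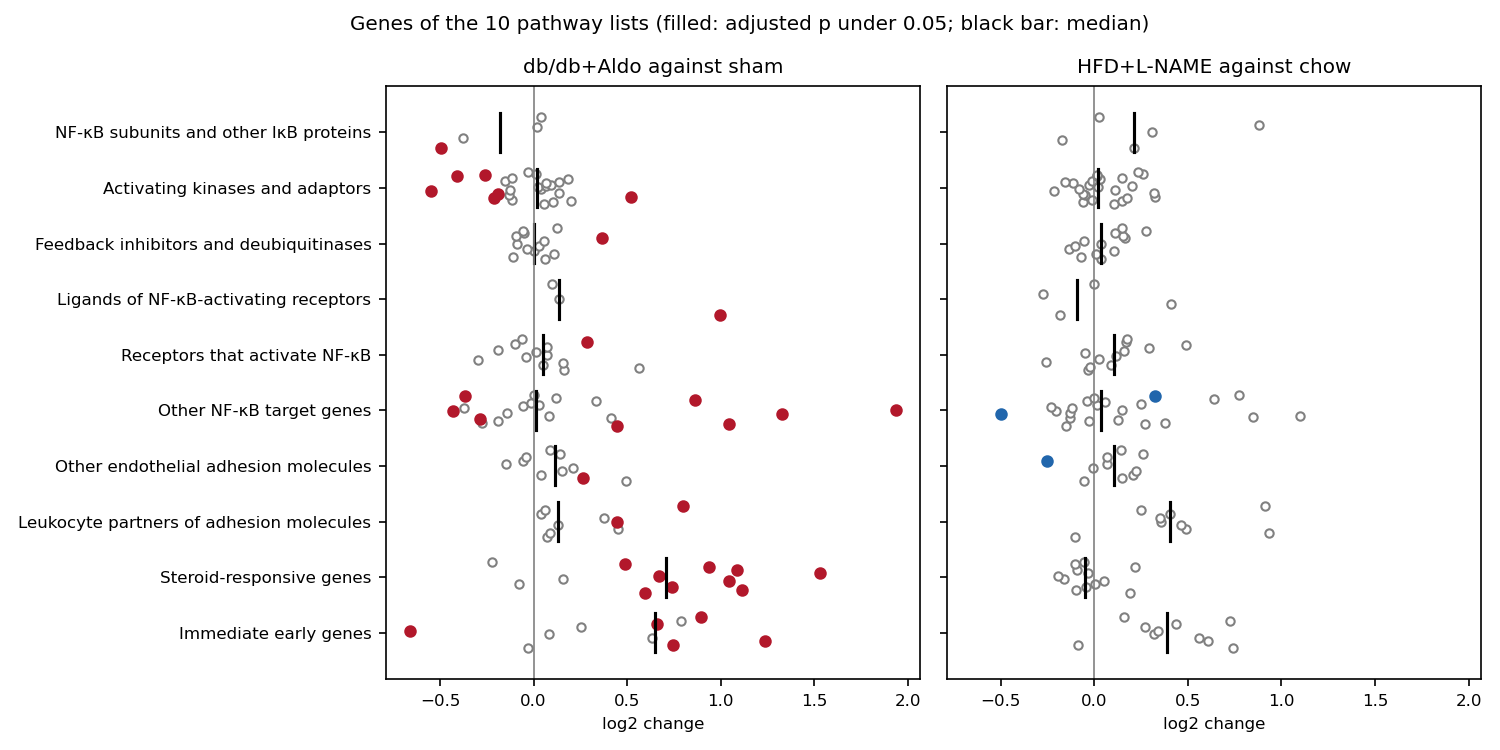
Log2 change (horizontal axis) of each tested gene of 10 gene lists in db/db+Aldo against sham hearts and in HFD+L-NAME against chow hearts; filled points have an adjusted p under 0.05 and the black bar is the median of the list. In the first comparison 9 of 12 steroid-responsive genes (75%, beside 19.2% of all genes) are filled on the right, and in the second none of them is.

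Upstream, 24 kinases and adaptors were tested, of which 1 rose and 5 fell in db/db+Aldo hearts, 25% called beside 19.2% of all genes. In HFD+L-NAME hearts 0 were called in either direction and 2 had an unadjusted p under 0.05, beside 15.3% of all genes. Malt1, the protease of a complex that links antigen receptors to IkB kinase, fell to 169 ± 19.7 counts in db/db+Aldo hearts (SD, n = 8), against 250 ± 36.4 in sham hearts (SD, n = 7; log2 change -0.55 ± 0.10, adjusted p = 0.000681). Traf2, an adaptor of TNF receptors, fell to 170 ± 16.7, against 227 ± 26.2 in sham hearts (-0.41 ± 0.09, adjusted p = 0.00305). Traf3, which restrains the noncanonical arm that processes p100, fell to 505 ± 21.4, against 604 ± 40.7 in sham hearts (-0.26 ± 0.06, adjusted p = 0.00478). The 1 that rose was Ikbke, a kinase related to the IkB kinases, at 46.2 ± 5.12 counts in db/db+Aldo hearts and 32.3 ± 5.98 in sham hearts (0.52 ± 0.13, adjusted p = 0.00967). Bcl3, an IkB protein that pairs with p50 and p52 in the nucleus, was the one called gene of 4 tested subunits and IkB proteins (25%, beside 19.2% of all genes). It had 92.0 ± 28.1 counts in db/db+Aldo hearts and 125 ± 19.4 in sham hearts (-0.49 ± 0.15, adjusted p = 0.0225), and its call held in 13 of 15 fits with 1 library left out.

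Of 13 other feedback inhibitors and deubiquitinases 1 rose and 0 fell in db/db+Aldo hearts, 7.69% called beside 19.2% of all genes. That was Pdlim2, a ubiquitin ligase for nuclear p65, at 131 ± 12.5 counts in db/db+Aldo hearts and 102 ± 11.9 in sham hearts (0.36 ± 0.09, adjusted p = 0.00863). Its call was lost with total-count scaling (0.16, adjusted p = 0.253). None of the 13 was called in HFD+L-NAME hearts, where 2 had an unadjusted p under 0.05, beside 15.3% of all genes. Among receptors 1 of 13 tested rose in db/db+Aldo hearts (7.69%, beside 19.2% of all genes). It was Tnfrsf1a, the main TNF receptor, with 808 ± 63.7 counts in db/db+Aldo hearts and 664 ± 76.0 in sham hearts (0.28 ± 0.08, adjusted p = 0.0124), a call lost with total-count scaling (0.08, adjusted p = 0.495) and with the replicate number as a block (0.28, adjusted p = 0.0505). Few ligands could be tested. Of 11, 3 passed the filter in this model, and 33.3% of these were called, beside 19.2% of all genes. Il33, an alarmin released by damaged cells, rose to 117 ± 34.96 counts in db/db+Aldo hearts, against 59.2 ± 20.6 in sham hearts (0.99 ± 0.22, adjusted p = 0.00333). Tnf averaged 8.04 counts in db/db+Aldo hearts and 7.04 in sham hearts, and Il1b 2.91 in db/db+Aldo hearts and 6.67 in sham hearts, both under the filter.

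Of 27 other known NF-kB targets 20 were tested in db/db+Aldo hearts, where 5 rose and 3 fell. Gadd45b, a stress-induced survival factor, rose to 95.02 ± 41.4 counts in db/db+Aldo hearts, against 36.1 ± 9.18 in sham hearts (1.33 ± 0.22, adjusted p = 0.000366). Ccl2, the monocyte chemokine, rose to 89.4 ± 33.2, against 42.1 ± 11.8 in sham hearts (1.04 ± 0.22, adjusted p = 0.00266), and Bcl2l1, which encodes the survival protein Bcl-xL, rose to 760 ± 108, against 559 ± 72.9 in sham hearts (0.45 ± 0.10, adjusted p = 0.00293). Targets thus moved in both directions, and 12 of 20 were not called. The 8 called were 40% of those tested, beside 19.2% of all genes. In the diet model 22 were tested, of which Tnfaip2, known from TNF-stimulated endothelium, rose to 1147 ± 71.6 counts in HFD+L-NAME hearts, against 917 ± 55.7 in chow hearts (SD, n = 4 each; 0.32 ± 0.06, adjusted p = 0.0251). F3, which encodes tissue factor, the starter of coagulation, fell to 217 ± 45.7 counts in HFD+L-NAME hearts, against 303 ± 33.2 in chow hearts (-0.50 ± 0.09, adjusted p = 0.0149). With each library of the diet model left out in turn, the call of Tnfaip2 held in 3 of 8 fits and that of F3 in 7 of 8.

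Of 10 other endothelial adhesion molecules 1 rose in db/db+Aldo hearts (10%, beside 19.2% of all genes). It was Cd34, with 2459 ± 213 counts in db/db+Aldo hearts and 2059 ± 231 in sham hearts (0.26 ± 0.07, adjusted p = 0.0176), and without the 3 libraries in doubt it came to 0.21 (adjusted p = 0.0702). In HFD+L-NAME hearts 1 fell (10%, beside 2.18% of all genes). It was the junctional molecule Jam2, with 2968 ± 198 counts in HFD+L-NAME hearts and 3529 ± 109 in chow hearts (-0.25 ± 0.06, adjusted p = 0.0448), and this call was lost whichever library was left out. With the replicate number as a block the adjusted p of Jam2 was 0.0696, which left 1 pathway gene lower in this comparison. None of the 10 rose in HFD+L-NAME hearts by limma, and 4 had an unadjusted p under 0.05, beside 15.3% of all genes. Of 9 leukocyte partners, 2 rose in db/db+Aldo hearts (22.2%, beside 19.2% of all genes). Spn, a leukocyte sialoglycoprotein, had 23.9 ± 5.90 counts in db/db+Aldo hearts and 13.2 ± 2.17 in sham hearts (0.80 ± 0.17, adjusted p = 0.00325), and Itgb2, the β chain of LFA-1 and Mac-1, had 143 ± 29.7 in db/db+Aldo hearts and 105 ± 22.0 in sham hearts (0.44 ± 0.14, adjusted p = 0.0304), a call that held in 8 of 15 fits with 1 library left out. None of the 9 was called in HFD+L-NAME hearts, where 4 had an unadjusted p under 0.05, beside 15.3% of all genes. The median log2 change of the 9 was 0.41 there, and Itgal, the α chain of LFA-1, had 48.4 ± 23.8 counts, against 25.2 ± 14.4 in chow hearts (adjusted p = 0.203).

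Genes known to respond to steroids and immediate early genes were read beside Nfkbia. Of 12 steroid-responsive genes, all tested, 9 rose and 0 fell in db/db+Aldo hearts, with a median log2 change of 0.71, and 0 were called in HFD+L-NAME hearts, where the median was -0.05 and 0 had an unadjusted p under 0.05. The share called was 75% in db/db+Aldo hearts, beside 19.2% of all genes, and 0% in HFD+L-NAME hearts, beside 2.18%. Sgk1, a kinase induced by mineralocorticoid and glucocorticoid receptors, rose to 1714 ± 286 counts in db/db+Aldo hearts, against 885 ± 116 in sham hearts (0.94 ± 0.11, adjusted p = 6.97e-06), a log2 change of the same size as that of Nfkbia. Fkbp5, a co-chaperone of steroid receptors, rose to 609 ± 116, against 302 ± 84.2 in sham hearts (1.04 ± 0.15, adjusted p = 5.46e-05), and Dusp1, a phosphatase of MAP kinases, rose to 2151 ± 459, against 1278 ± 125 in sham hearts (0.74 ± 0.11, adjusted p = 9.07e-05). Of 12 such genes, 6 were called higher in the difference between the models, among them Sgk1 (0.72 ± 0.17, adjusted p = 0.0125). That is 50%, beside 5.52% of all genes. Of 10 immediate early genes 4 rose and 1 fell in db/db+Aldo hearts, which is 50% called, beside 19.2% of all genes. Zfp36, which encodes an mRNA-destabilising protein, rose to 959 ± 227, against 510 ± 69.3 in sham hearts (0.89 ± 0.13, adjusted p = 6.32e-05), and Myc rose to 106 ± 32.9, against 65.6 ± 11.9 in sham hearts (0.66 ± 0.16, adjusted p = 0.00746). Jun, a subunit of AP-1, fell to 954 ± 184, against 1504 ± 252 in sham hearts (-0.66 ± 0.12, adjusted p = 0.000607), so the list did not move as one. The lists were chosen with earlier results of these data known, and the counts describe them only.

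Some of these list calls in db/db+Aldo hearts did not hold within a single series of library names. Pdlim2 (adjusted p = 0.131 and 0.167), Tnfrsf1a (0.202 and 0.121), Traf3 (0.164 and 0.0879), Bcl2l1 (0.0550 and 0.0991), Cd34 (0.256 and 0.112) and Bcl3 (0.278 and 0.0672) were called in neither the libraries whose names begin with 26 nor the rest. Ccl2 (limma adjusted p = 0.115), Il33 (0.0866) and Itgb2 (0.387) were called in the former but not among the rest. Malt1 (0.0670), Traf2 (0.166), Myc (0.149) and Spn (0.202) each lost their call under 1 of all alternatives. Total-count scaling ended the calls of Bcl2l1 (0.24, adjusted p = 0.0745), Cd34 (0.06, adjusted p = 0.604) and Itgb2 (0.24, adjusted p = 0.161), and the replicate number as a block that of Bcl3 (-0.41, adjusted p = 0.0969). Nfkbia, Gadd45b, Sgk1, Fkbp5, Dusp1, Zfp36 and Jun were called in both series, with total-count scaling and with the block.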

How the data were processed

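The 9 members and all gene lists were chosen with earlier results of these data known. The tools named in the submitters' processing notes are limma, DESeq2 and featureCounts, with GRCm38 and mm10 as builds. Not given in the sources used here are the aligner, the annotation, the use of strand and versions. The authors deposited a batch-corrected table, whose values were taken as a score: within a run a gene's values differ by whole numbers (tolerance 0.001), and 10.2% are below 0, as for whole read counts from which each gene had a run's shift taken off. The authors' deposited comparison tables give a mean signal, a log2 fold change and its SE, a Wald score and a p-value, per the file headers.

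Counts were recovered for 52392 of 55487 genes, from size factors read off single-read genes and from the authors' mean signal, and came out whole for 99.98% in the db/db+Aldo model and 100% in the diet model. Depth was 21258779 to 25692431 reads a library. Genes with a mean normalised count of at least 10 were tested with limma 3.58.1 (R 4.3.3) on log2(count divided by size factor, plus 1), with a variance trend, sex as covariate and Benjamini-Hochberg adjustment at 0.05 over all genes tested, within each model. Python 3.11.15, numpy 2.4.6, scipy 1.17.1 and pandas 2.3.3 were used for recovery and exact tests. Positions and exon lengths came from GENCODE M21 (GRCm38), promoters from RefSeq (GRCm38.p6).

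All members are described, and of each list the text names up to 3 called genes with the smallest p per comparison, plus the 5 genes most alike to Nfkbia. Adhesion partners, ligands under the filter Ikbke, Psd and AC114539.1 are named outside this rule, after their values were seen. Alternatives covered pseudocounts, filters, scalings, variance models, covariates, blocks, library name series and each library left out. The fit and values without 3 libraries and the ratio tests were chosen after seeing the data. In the diet model, same-numbered HFD+L-NAME and chow libraries had correlations of their deviations of 0.246, 0.116, 0.182 and 0.371. Replicates 3 and 4 correlated best with their own number, and replicates 1 and 2 did not. The number was used as a block in an alternative fit only, there without the sex covariate, since the numbers also go with sex. The reported fit used no pairs.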

Additional observations from a re-analysis of the deposited data

Results flagged for a closer look

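Relb was flagged because 1 of the 4 chow libraries stood apart. Replicate 1 had 203.1 normalised counts, and its gap to the next library was 0.858 of the group's range, above Dixon's critical value for a group of 4. Of 36 groups of libraries looked at in this way this was the one flagged, and chance flags about 1 in 20.

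A further set was flagged because the treatment effects of the models differed in the test of the difference itself (db/db+Aldo against sham minus HFD+L-NAME against chow, log2, limma). Of the members these were Nfkbia at 0.75 ± 0.19 and Icam1 at -0.70 ± 0.19, described above. Among the NF-kB lists, the difference was 1.45 ± 0.35 for Gadd45b (adjusted p = 0.0131), 1.19 ± 0.34 for Il33 (adjusted p = 0.0394), 0.60 ± 0.16 for Bcl2l1 (adjusted p = 0.0208), -0.68 ± 0.15 for Tnfaip2 (adjusted p = 0.00535) and -0.39 ± 0.11 for Ikbkb, a catalytic subunit of IkB kinase (adjusted p = 0.0309). The call was kept under all 34 alternatives for Gadd45b and Tnfaip2, under 31 for Bcl2l1, 27 for Ikbkb and 18 for Il33, and with each of 23 libraries left out in turn it held in 18 fits for Ikbkb and 10 for Il33. Ikbkb was lost with the replicate number as a block (-0.38, adjusted p = 0.123), and Il33 with limma voom (1.22, adjusted p = 0.0587) and without the sex covariate (1.17, adjusted p = 0.0513). Tnfaip2 was lower in db/db+Aldo than in sham hearts (905 ± 162 and 1152 ± 102 counts) and higher in HFD+L-NAME than in chow hearts. Among steroid-responsive and immediate early genes the difference was 0.72 ± 0.17 for Sgk1, 0.79 ± 0.20 for Dusp1 (adjusted p = 0.0170), 0.88 ± 0.22 for Mt1, a metallothionein (adjusted p = 0.0188), 0.74 ± 0.21 for Zfp36 (adjusted p = 0.0401) and -0.995 ± 0.206 for Jun (adjusted p = 0.00427). Of 34 alternatives the call was kept under 34 for Jun, 33 for Sgk1, 31 for Dusp1 and Mt1 and 17 for Zfp36. With 1 library left out Zfp36 held in 10 of 23 fits, and it was lost with total-count scaling (0.53, adjusted p = 0.114), without the sex covariate (0.73, adjusted p = 0.0644) and when the 3 libraries in doubt were left out (adjusted p = 0.0621).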

How the results depend on the processing

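Of the called members, Nfkbia in db/db+Aldo hearts kept its direction and call under all 30 alternatives, Nfkb2 under 26 of 30 and Icam1 in HFD+L-NAME hearts under 13 of 19. In db/db+Aldo against sham, total-count scaling, which moved the median of all genes to -0.22, gave 555 genes that rose and 4771 that fell, with 4 members lower (Nfkb1, Nfkb2, Rela and Relb) and 6 pathway genes higher and 23 lower. Libraries named 26xx alone gave 430 and 259 genes, 0 members lower, and 7 and 1 pathway genes; the other names gave 751 and 560, 0, and 4 and 2. The replicate block gave 842 genes lower, 0 members lower and 5 pathway genes lower; same-numbered libraries there share only a number, with correlations from -0.335 to 0.148, and no library correlated best with its own number. In HFD+L-NAME against chow the replicate block changed no member's call, and no sex covariate gave 101 genes higher and 85 lower. There 1 pathway gene fell with no filter, total-count scaling, nuclear totals, quantile normalization, the block or all 23 libraries in 1 fit, and 0 with no sex covariate. For the difference between models, total-count scaling gave 189 genes higher and 1241 lower, 0 members higher and 3 lower; the replicate block gave 198 lower; leaving out the 3 libraries in doubt gave 687 higher and 2 members lower. The sex by treatment interaction gave 1 gene higher in the db/db+Aldo model with no filter, and 0 in the diet model with no filter or voom.

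Leaving out each library in turn gave 1090 to 1850 genes higher and 955 to 1750 lower in db/db+Aldo, 82 to 170 and 60 to 137 in HFD+L-NAME, and 284 to 742 and 215 to 571 for the difference. Members called ranged over 1 higher and 0 to 1 lower, 0 to 1 higher, and 0 to 1 higher and 0 to 2 lower. Pathway genes ranged over 10 to 16 higher and 7 to 11 lower, then 0 to 2 and 0 to 2, and interaction genes in the diet model over 0 to 19 higher and 0 to 28 lower.

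Values that changed sign were not called. In db/db+Aldo these were Nfkbiz at -0.0830 with total-count scaling, Rela at 0.0150 and Icam1 at 0.00698 among the other names, and Vcam1 at 0.32 among names 26xx (-0.27 among the other names), 0.0168 without the libraries in doubt, and from -0.108 to 0.0524 with 1 library left out. In HFD+L-NAME they were Nfkb1, from -0.0260 to 0.0793, and Nfkb2, from -0.00229 to 0.0723, with 1 library left out. Correlations with Nfkbia that changed sign, none of which passed by Pearson's r or Spearman's rho, were those in db/db+Aldo hearts with Nfkbiz (0.0986), Nfkb1 (0.664), Relb (0.251) and Vcam1 (0.0882) without the 2 farthest libraries and with Nfkb2 (-0.0476) and Rela (-0.238) by Spearman's rho. In sham hearts they were those with Nfkb1 (-0.204), Nfkb2 (-0.0930), Rela (-0.600) and Relb (-0.189) without the 2 farthest and with Rela (-0.321) by rho. The causes were not tested.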
